A study of Mus musculus with 38 samples.

Results

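The 10 genes described here form the machinery that releases fatty acids from stored and circulating triglyceride: the lipases Pnpla2, Lipe and Mgll, the lipase inhibitor G0s2, the lipid droplet coat genes Plin2, Plin4 and Plin5, and lipoprotein lipase (Lpl) with its inhibitors Angptl4 and Angptl8. Transcription start sites in mouse soleus, a slow postural muscle of the lower leg, were counted by CAGE, which sequences the capped 5′ end of each RNA and so counts RNA promoter by promoter. A promoter was taken as a member when its CAGE cluster had its position within 500 bp, on the same strand, of an annotated 5′ end of 1 of these genes. All 10 genes had at least 1 such cluster and none was absent, giving 13 of 10819 clusters, since Pnpla2, Lipe and Plin5 each had 2. The whole table held 9076 genes with a cluster.

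All animals were male C57BL/6J mice, each giving 1 library from soleus. In experiment #1, 4 mice were taken before fasting with food and at low ambient temperature (Pre), 8 during fasting-induced torpor on the next day (Mid) and 4 a day later after food was returned (Post). Torpor was prevented in 3 ways: 4 mice fasted at high ambient temperature (HiT), 4 kept their food at low ambient temperature (Fed), and 4 fasted at low ambient temperature but were roused by gentle touch (Dep). The GEO records list the Fed libraries under starvation and give food to the HiT mice, whereas the study's methods describe the groups as above, and the methods were followed here. Experiment #2 was a separate set with 2 Pre, 5 Mid and 3 Post mice. All mice were sampled late in the dark phase, and Mid mice may have been in or between bouts of low metabolism when sampled, so the Mid group is one clock time and not one metabolic state. Clusters held 18257657 to 39176649 tags per library in experiment #1 and 9359994 to 20914855 in experiment #2, which was 93.08% to 95.64% of each library. Values below are from experiment #1 except where experiment #2 is named. Levels are given as TPM, here the tags of a cluster per 1000000 tags in clusters after TMM scaling, and a change from A to B is positive on the log2 scale where B was higher. Calls are at an edgeR quasi-likelihood FDR under 0.05 over all clusters tested (10776 in experiment #1 and 10816 in experiment #2). Muscle marker genes were read for fibre content, which cannot establish soleus identity. All 10 genes listed as slow-fibre markers and all 8 listed as fast-fibre markers had clusters. The slow list includes Acta1 and Ckm, which are not confined to slow fibres, and their clusters were not counted apart. None of these clusters was called from Pre to Mid in experiment #1, where 30.2% of all clusters were. From HiT to Mid 8 of 25 slow clusters were higher and 1 lower, and 5 of 19 fast clusters higher and 3 lower (all clusters, 19.2% and 21.8%). The fast-fibre gene Myh4 ran from 5.91 to 989 TPM in Mid, 51.1 to 1700 in Fed and 2.65 to 6.58 in HiT. The part of fibre content in the member changes was not tested.

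Triglyceride in a muscle cell sits in a lipid droplet whose surface is covered by perilipins. Adipose triglyceride lipase (ATGL, from Pnpla2) removes the first fatty acid, hormone-sensitive lipase (from Lipe) removes the next and monoacylglycerol lipase (from Mgll) the last, while the small protein G0S2 binds ATGL and blocks it. Triglyceride in blood lipoproteins is instead split at the capillary wall by lipoprotein lipase, which ANGPTL4 inactivates and which ANGPTL8 restrains in muscle and heart in the fed state.

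From Pre to Mid in experiment #1, 11 of the 13 clusters were called, 9 higher and 2 lower, where 30.2% of all clusters were called (15.4% higher and 14.8% lower). The 2 that fell were the inhibitors G0s2 (6.59-fold) and Angptl8, and the 9 that rose belonged to Pnpla2, Plin2, Plin4, Plin5, Angptl4, Lpl and the downstream promoter of Lipe. The median absolute log2 change of the 13 clusters was 1.27, against 0.20 over all clusters. From Mid to Post, 11 clusters were called again, each opposite in sign to its change from Pre to Mid, where 35.0% of all clusters were called (17.5% higher and 17.5% lower). These 2 comparisons share the Mid libraries. In bulk muscle, fewer cells of a type and less RNA per cell cannot be told apart.

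**Figure D1:**
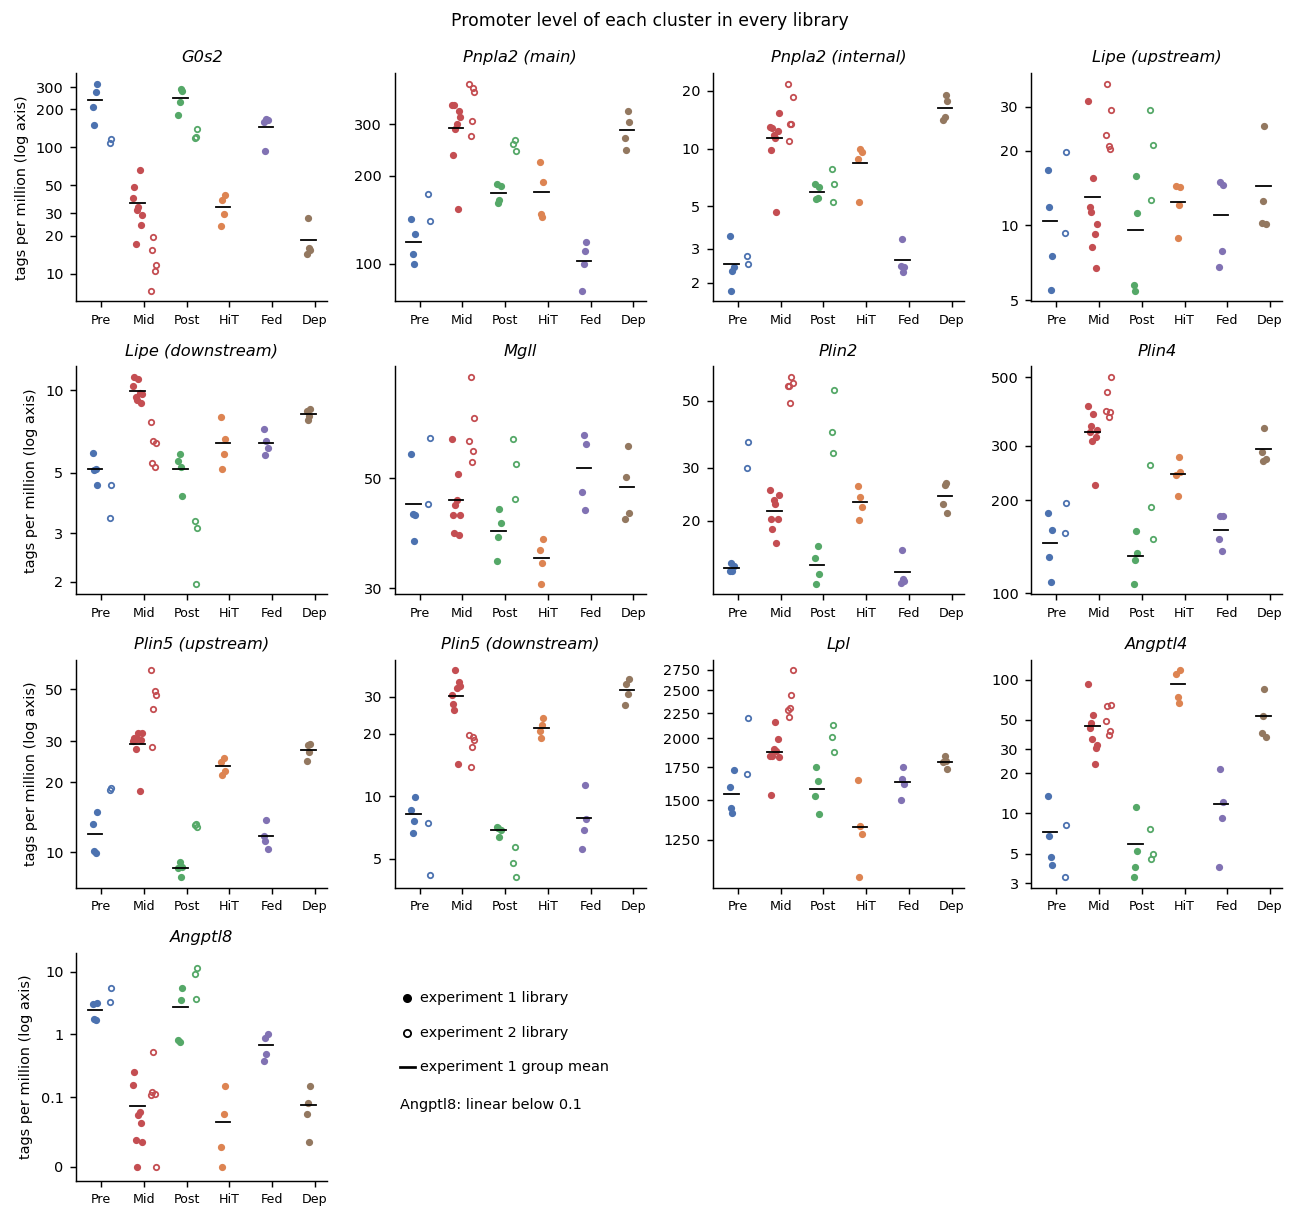
Level of each of the 13 member clusters in every library (TPM, log axis, for Angptl8 linear below 0.1, 1 point per mouse), with the 6 conditions along the x axis, filled points and mean bars for experiment #1 and open points for experiment #2. G0s2 and Angptl8 sit low in Mid, HiT and Dep and high in Pre, Post and Fed, while Plin4, Plin5 and Angptl4 do the reverse. In experiment #1 both Pnpla2 promoters are higher in Mid, HiT and Dep than in Pre and Fed, but their Post and HiT libraries overlap.

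Sequences upstream of the annotated start sites are shown for the 2 genes that fell, for 2 that rose and for Mgll, which was not called, because their CpG content differed. Each is 100 bases of RefSeq promoter sequence (mouse GRCm38.p6), 5′ to 3′ on the strand of the gene, with CG dinucleotides in capitals. The stretch of G0s2 ends 107 bases before its CAGE peak, that of Mgll 57, those of Plin4 and Pnpla2 18 and that of Angptl8 1.
G0s2 chr1:193273218-193273317 (minus strand): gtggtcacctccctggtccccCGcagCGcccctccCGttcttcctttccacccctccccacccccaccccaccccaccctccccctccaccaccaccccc
Angptl8 chr9:21835395-21835494 (plus strand): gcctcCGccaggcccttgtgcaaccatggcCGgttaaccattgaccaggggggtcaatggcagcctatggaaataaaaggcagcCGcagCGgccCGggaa
Plin4 chr17:56109804-56109903 (minus strand): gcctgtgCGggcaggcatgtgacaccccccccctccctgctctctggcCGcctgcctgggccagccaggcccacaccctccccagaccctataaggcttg
Pnpla2 main promoter chr7:141455088-141455187 (plus strand): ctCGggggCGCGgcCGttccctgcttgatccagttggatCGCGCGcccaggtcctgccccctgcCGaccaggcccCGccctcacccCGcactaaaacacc
Mgll chr6:88724312-88724411 (plus strand): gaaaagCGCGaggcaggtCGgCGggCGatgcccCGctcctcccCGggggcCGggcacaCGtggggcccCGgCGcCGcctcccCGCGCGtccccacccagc
The Mgll stretch holds 15 CG dinucleotides and the Pnpla2 stretch 10, while G0s2 has 3, Angptl8 has 5 and Plin4 has 2. Of the 13 clusters 9 had a RefSeq promoter window of 300 bases (250 before and 50 after the RefSeq start), while Lpl, Angptl4, the downstream promoter of Lipe and the internal promoter of Pnpla2 had no entry. In those windows the observed to expected CpG ratio was 0.07 at Lipe, 0.22 at Plin4, 0.32 at Angptl8, 0.36 at Plin2, 0.43 at G0s2, 0.48 and 0.59 at the downstream and upstream promoters of Plin5, 0.56 at Pnpla2 and 0.87 at Mgll. Thus 8 of the 9 lay below the median of 0.80 over 6747 RefSeq promoters assigned to clusters. GC content ran from 58.3% to 70.0% around an overall median of 62.0%.

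Motif letters were searched in the same windows and 5 matches were found in 3 of the 9. A match within 2 mismatches to the PPAR response element, 2 copies of AGGTCA 1 base apart, was present at Plin2, 225 bases before the RefSeq start on the opposite strand, and in 3.02% of all promoters. A FOXO core GTAAACA was present at the upstream Lipe promoter, at position -119 on the opposite strand, and at Mgll at position -241, and in 2.48% of all promoters. The E-box CACGTG was present at Mgll (position -44) and Plin2 (position -4), and in 10.6% of all promoters. Both strands were searched for each of these. The TATA box letters TATAAA, searched on the sense strand just before the RefSeq start (1.62% of promoters), were found there in none of the 9 windows. CAGE peaks lay 77 (G0s2), 63 (Plin2), 56 (Mgll), 19 (downstream Plin5) and 17 (Pnpla2) bases after that start and 15 before it (Angptl8). The usual place before these peaks was thus not searched, or at most in part. Only at upstream Lipe, Plin4 and upstream Plin5 did the peak lie within 4 bases of the start. Also in none of the 9 windows were the cyclic AMP response element TGACGTCA (3.41%) and the sterol response element TCACNCCAC (1.16%). The glucocorticoid response element, AGAACA and TGTTCT 3 bases apart (0.949%), was absent too, within 2 mismatches. The Plin2 and Lipe matches are shown in capitals below.
Plin2 chr4:86670210-86670309 (minus strand): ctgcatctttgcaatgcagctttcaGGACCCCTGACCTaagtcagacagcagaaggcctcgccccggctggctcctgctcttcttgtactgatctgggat
Lipe upstream promoter chr7:25390163-25390262 (minus strand): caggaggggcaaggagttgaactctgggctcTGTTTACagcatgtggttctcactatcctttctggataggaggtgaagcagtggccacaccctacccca

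G0s2, the ATGL inhibitor, started from chr1:193272978-193273239 (mm10, minus strand), with its peak 106 bp inside the annotated 5′ UTR of its single transcript. Its level was 208, 151, 276 and 320 TPM in the 4 Pre mice and 17.3 to 65.9 (median 32.9) in the 8 Mid mice. Post mice had 182, 230, 291 and 282. No Mid library reached the lowest Pre or Post library. G0s2 fell by 2.72 (SE 0.26, FDR 4.08e-08) on the log2 scale from Pre to Mid and rose by 2.76 (SE 0.26, FDR 1.44e-08) from Mid to Post, and Pre and Post differed by 0.04 (SE 0.30, FDR 0.975).

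In the groups kept out of torpor, G0s2 was low in both that fasted and high in the one that ate. The HiT mice had 24.0, 38.6, 29.8 and 41.9, the Dep mice 14.4, 27.6, 15.9 and 15.5, and the Fed mice 159, 93.8, 167 and 164 TPM. HiT lay within the Mid range, Fed lay wholly above it, and 3 of the 4 Dep libraries lay below its lowest value. The change from HiT to Mid was 0.11 (SE 0.27, FDR 0.768), whereas from Fed to Mid G0s2 fell by 2.01 (SE 0.26, FDR 1.78e-06). From Mid to Dep the change was -0.98 (SE 0.28) with an FDR of 0.069, and the edgeR likelihood ratio test (FDR 0.0255) and DESeq2 (FDR 0.0145) placed it past the threshold, as did leaving out Mid replicate 3 (FDR 0.0459) or Mid replicate 7 (FDR 0.0483). From HiT to Dep G0s2 fell by 0.87 (SE 0.32, FDR 0.0427). The order of the means was Post, Pre, Fed, Mid, HiT and Dep, in which only the neighbours Fed and Mid, and HiT and Dep, differed.

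Pnpla2, encoding ATGL, had a main promoter at chr7:141455066-141455629 (mm10, plus strand), which ranked 576 of all clusters by mean level. It gave 142, 108, 99.8 and 127 TPM in Pre, 154 to 349 (median 310) in Mid, and 187, 161, 165 and 184 in Post. All Mid libraries exceeded all Pre libraries, and Mid replicate 6, at 154, was the lowest of the Mid mice. Pnpla2 rose by 1.29 (SE 0.17, FDR 4.34e-06) from Pre to Mid and fell by 0.74 (SE 0.17, FDR 0.00128) from Mid to Post. Post mice did not overlap with Pre mice, although the change of 0.55 (SE 0.19) between them had an FDR of 0.158.

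The main Pnpla2 promoter was called from HiT to Mid, whereas G0s2 was not. The G0s2 to Pnpla2 ratio, given below, changed by -0.65 from HiT to Mid (exact permutation p = 0.234). HiT mice had 222, 148, 145 and 191, Fed mice 80.9, 99.9, 111 and 119, and Dep mice 268, 244, 332 and 304 TPM. Fed overlapped with Pre, Dep lay within the Mid range, and all HiT libraries lay above all Pre libraries. The level rose by 0.72 (SE 0.17, FDR 0.00123) from HiT to Mid and by 1.5 (SE 0.17, FDR 6.13e-07) from Fed to Mid, and it changed by -0.02 (SE 0.16, FDR 0.966) from Mid to Dep. Mid and HiT overlapped only through Mid replicate 6.

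A second Pnpla2 cluster lay 1831 bp downstream, at chr7:141456971-141457657, inside an intron of 6 of the 7 annotated transcripts and in an exon of a retained-intron transcript. It gave 1.81 to 3.51 TPM in the 4 Pre mice, 4.67 to 15.4 (median 12.1) in Mid, and 6.57, 5.48, 5.51 and 6.28 in Post. All Mid and all Post libraries exceeded the Pre libraries. The internal promoter rose by 2.18 (SE 0.24, FDR 4.38e-07) from Pre to Mid, fell by 0.93 (SE 0.22, FDR 0.00175) from Mid to Post, and was still higher in Post than in Pre by 1.24 (SE 0.26, FDR 0.012). It was the only 1 of the 13 clusters called between Pre and Post in experiment #1, where 1.85% of all clusters were called and 3 members had an unadjusted p under 0.05. In experiment #2 Post exceeded Pre by 1.32 (SE 0.32) with an FDR of 0.164. Its share of Pnpla2 tags was 2.05% ± 0.35 (SD, n = 4) in Pre, 3.72% ± 0.48 (n = 8) in Mid, 3.30% in Post, 4.62% in HiT, 2.55% in Fed and 5.38% in Dep. The Dep mice had 14, 14.6, 19.1 and 17.7 TPM, and the change of 0.52 (SE 0.20) from Mid to Dep had an FDR of 0.163.

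Lipe, encoding hormone-sensitive lipase, was read from 2 promoters 1136 bp apart, of which only the downstream one was called from Pre to Mid in experiment #1. The difference between the 2 was not tested. The downstream one (chr7:25388880-25389078, mm10, minus strand) gave 5.89, 5.11, 5.15 and 4.50 TPM in Pre, 9.02 to 11.2 (median 9.73) in Mid, and 5.53, 5.85, 5.23 and 4.10 in Post. HiT mice had 7.99, 5.17, 5.84 and 6.64, Fed mice 7.19, 5.81, 6.53 and 6.17, and Dep mice 8.41, 7.81, 8.06 and 8.54. Every one of the 8 Mid libraries lay above every library of the other 5 groups. This promoter rose by 0.95 (SE 0.11, FDR 9.39e-07) from Pre to Mid, by 0.63 (SE 0.11, FDR 5.24e-05) from HiT to Mid and by 0.64 (SE 0.11, FDR 7.37e-05) from Fed to Mid, and fell by 0.95 (SE 0.11, FDR 4.31e-07) from Mid to Post. From Mid to Dep it changed by -0.28 (SE 0.11) with an FDR of 0.155.

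The upstream Lipe promoter (chr7:25389792-25390219), whose FOXO match is shown above, gave 16.7, 11.9, 5.48 and 7.49 TPM in Pre and 6.76 to 31.6 (median 10.7) in Mid. Post mice had 5.77, 5.44, 15.8 and 11.2, HiT mice 14.4, 8.86, 12.1 and 14.2, Fed mice 6.82, 14.9, 7.88 and 14.5, and Dep mice 10.2, 12.5, 25 and 10.1. All 6 groups overlapped, and none of the neighbours in the order of means differed. Its change from Pre to Mid was 0.32 (SE 0.38, FDR 0.562). In experiment #2 the upstream promoter changed by 0.85 (SE 0.37, FDR 0.194) and the downstream one by 0.65 (SE 0.26, FDR 0.157) from Pre to Mid. There the upstream Mid libraries (20.3 to 37.2 TPM) lay above both Pre libraries (9.32 and 19.8). Over the 28 libraries of experiment #1 the clusters most like the upstream promoter were those of Fabp4 (Pearson r 0.92), Cidec (0.90) and Iah1 (0.86). Of these, Fabp4 and Cidec are expressed in adipocytes. Adipocyte marker genes (8 of 11 detected) summed to 339 to 1092 TPM in Pre, 117 to 1229 in Mid, 255 to 998 in Post, 210 to 802 in HiT, 302 to 1003 in Fed and 247 to 1600 in Dep. The 2 highest libraries for upstream Lipe, Mid replicate 1 and Dep replicate 3, were also the highest of their groups for these markers, at 1229 and 1600. With the adipocyte marker level as a term in the fit, upstream Lipe rose by 0.84 (FDR 0.000672) from Pre to Mid and fell by 0.85 (FDR 0.000376) from Mid to Post. That term, here and below, was the mean log2 level of these markers and not their sum. Of the markers, Thrsp (-1.80, FDR 5.07e-05) and Plin1 (-1.64, FDR 0.0390) were called lower from Pre to Mid, so the term was not free of condition. How far this moved the adjusted changes was not tested.

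**Figure D2:**
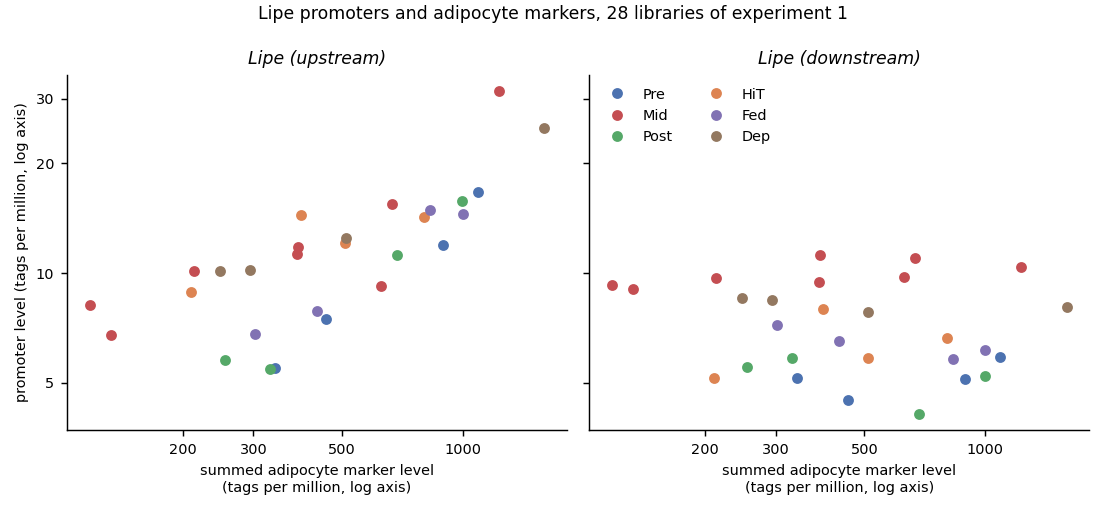
The 2 Lipe promoters against the summed level of adipocyte marker genes in the 28 libraries of experiment #1 (both axes in TPM, logarithmic, colours are the 6 conditions). The upstream promoter climbs with the marker sum, with Mid replicate 1 and Dep replicate 3 at the upper right, while at the downstream promoter the 8 Mid libraries lie above all others at any marker level.

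Mgll, encoding monoacylglycerol lipase (chr6:88724365-88725133, mm10, plus strand), whose window had the highest CpG ratio of the 9, gave 56.0, 42.4, 37.3 and 42.1 TPM in Pre and 38.5 to 60.0 (median 43.1) in Mid. Its change from Pre to Mid was 0.02 (SE 0.12, FDR 0.910) and from Mid to Post -0.21 (SE 0.13, FDR 0.198). With the adipocyte marker level as a term the change from Mid to Post was -0.33 (FDR 0.00180), and -0.39 (FDR 0.0127) in experiment #2. The 4 HiT mice, at 35.8, 30.6, 33.7 and 37.8, lay below all 8 Mid mice. From HiT to Mid Mgll rose by 0.39 (SE 0.13, FDR 0.0148), and from Pre to HiT it fell by 0.37 (SE 0.14, FDR 0.0497). The call from HiT to Mid was lost without HiT replicate 2 (FDR 0.0634). The Fed mice had 47.0, 61.1, 43.2 and 58.6, and the change from Fed to Mid was -0.22 (SE 0.12, FDR 0.175).

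Each of the droplet coat genes rose from Pre in all 3 groups without food (Mid, HiT and Dep). Plin2 (chr4:86669754-86670131, mm10, minus strand), the perilipin found on droplets of most cell types, gave 13.6, 14.4, 13.6 and 14.1 TPM in Pre, 16.8 to 25.2 (median 21.5) in Mid and 15, 12.3, 16.5 and 13.3 in Post. HiT mice had 26, 20.1, 23.9 and 22.2, Fed mice 12.4, 16, 12.8 and 12.6, and Dep mice 22.7, 26.2, 26.7 and 21.2. In experiment #1 the libraries of mice without food (Mid, HiT and Dep) all lay above those of mice with food, whereas in experiment #2 Post replicate 7 (54.2) exceeded Mid replicate 11 (49). Plin2 rose by 0.63 (SE 0.11, FDR 8.15e-05) from Pre to Mid and by 0.68 (SE 0.11, FDR 2.71e-05) from Fed to Mid, and it changed by -0.10 (SE 0.10, FDR 0.452) from HiT to Mid.

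Plin4 (chr17:56109258-56110163, mm10, minus strand), the perilipin with the longest repeat region and a high level in adipocytes and striated muscle, was the strongest coat gene. It gave 182, 131, 109 and 160 TPM in Pre, 223 to 404 (median 335) in Mid and 107, 128, 159 and 135 in Post, with no overlap of Mid with either. The level rose by 1.19 (SE 0.14, FDR 1.22e-06) from Pre to Mid and fell by 1.33 (SE 0.14, FDR 1.30e-07) from Mid to Post. HiT mice, at 241, 206, 276 and 246, were intermediate, and Plin4 rose by 0.45 (SE 0.14, FDR 0.0102) from HiT to Mid and by 1.05 (SE 0.14, FDR 4.11e-06) from Fed to Mid. Without HiT replicate 2 the FDR from HiT to Mid was 0.0525.

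Plin5, the perilipin of oxidative tissues, which tethers droplets to mitochondria, had 2 promoters with peaks 268 bp apart, the nearer of them 7493 bp from the Plin4 peak on the same strand. The downstream one (chr17:56117113-56117379) gave 8.57, 6.63, 7.63 and 9.90 TPM in Pre, 14.3 to 40.5 (median 32) in Mid, and 7.10, 7.05, 6.39 and 6.86 in Post. The upstream one (chr17:56117417-56117622) gave 13.2, 10.1, 9.94 and 14.8 in Pre, 18.3 to 32.6 (median 30.4) in Mid, and 8.55, 9.04, 7.80 and 8.67 in Post. At both, Mid was wholly above Pre and Post, and Mid replicate 6 was the lowest Mid library. From Pre to Mid the downstream promoter rose by 1.88 (SE 0.20, FDR 2.53e-07) and the upstream one by 1.27 (SE 0.13, FDR 1.09e-07). The downstream share of Plin5 tags was 40.6% ± 1.91 (SD, n = 4) in Pre, 50.3% ± 3.94 (n = 8) in Mid and 54.1% ± 1.28 (n = 4) in Dep, and the lowest Mid share, 44.0%, exceeded the highest Pre share, 43.4%. From HiT to Mid the rises were 0.50 (SE 0.18, FDR 0.0308) and 0.31 (SE 0.12, FDR 0.0420), and both calls were lost when HiT replicate 2 was left out (FDR 0.0930 and 0.124). The downstream call was also lost without Mid replicate 4, Mid replicate 7 or HiT replicate 1 (FDR 0.0522 to 0.0618), and the upstream one without Mid replicate 1, 4, 5, 7 or 8 or HiT replicate 4 (FDR 0.0521 to 0.0700).

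Lpl (chr8:68880002-68880922, mm10, plus strand) ranked 66 of all clusters and, of the members called from Pre to Mid and from Mid to Post, changed least in both. It gave 1599, 1447, 1414 and 1725 TPM in Pre, 1539 to 2157 (median 1865) in Mid and 1529, 1754, 1644 and 1407 in Post, and Mid overlapped with both. The rise from Pre to Mid was 0.28 (SE 0.09, FDR 0.0278) and the change from Mid to Post was -0.24 (SE 0.09, FDR 0.0469). Both calls were lost without TMM scaling (FDR 0.471 and 0.387), and the second was lost in 20 of the 28 fits that each left out 1 library (FDR up to 0.160, without Post replicate 4). The first was lost without Pre replicate 2, Pre replicate 3 or Mid replicate 5 (FDR 0.0536 to 0.104). HiT mice had 1650, 1050, 1330 and 1284, and Lpl rose by 0.50 (SE 0.10, FDR 1.84e-04) from HiT to Mid. The changes from Fed to Mid (0.20, SE 0.09, FDR 0.105, but 0.0276 without Mid replicate 2) and from Mid to Dep (-0.06, SE 0.09, FDR 0.744) did not pass.

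Angptl4, the fasting-induced inhibitor of lipoprotein lipase (chr17:33781056-33781638, mm10, minus strand), gave 13.4, 6.81, 4.71 and 4.10 TPM in Pre, 23.3 to 92.1 (median 39.8) in Mid and 3.35, 3.94, 11.1 and 5.27 in Post. Mid lay wholly above both, and Mid replicate 1 was the highest Mid library. Angptl4 rose by 2.62 (SE 0.45, FDR 7.55e-05) from Pre to Mid and fell by 2.93 (SE 0.46, FDR 1.98e-05) from Mid to Post. Its mean was highest in the mice fasted in the warm, with 110, 74.0, 66.6 and 118 in HiT, against 3.99, 21.6, 9.29 and 12.1 in Fed and 39.9, 53.7, 84.4 and 37.0 in Dep. HiT and Dep overlapped, and the change of -0.77 (SE 0.44) from HiT to Dep had an FDR of 0.210. All 4 HiT libraries exceeded 7 of the 8 Mid libraries, and Angptl4 was the only member called lower in Mid than in HiT (-1.03, SE 0.37, FDR 0.0262). That call was lost when HiT replicate 1 (FDR 0.0778) or HiT replicate 4 (FDR 0.0995) was left out and without TMM scaling (FDR 0.0891), and with the adipocyte marker level as a term it was -1.17 (FDR 0.000468). From Pre to HiT the rise was 3.66 (SE 0.49, FDR 3.31e-06).

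Angptl8, the feeding-induced inhibitor (chr9:21835404-21835596, mm10, plus strand), was the weakest member, ranking 10582 of all clusters. It gave 3.01, 1.74, 1.70 and 3.17 TPM in Pre (42 to 91 tags per library), 0 to 0.251 (median 0.0686, 0 to 6 tags) in Mid and 0.807, 0.750, 3.58 and 5.57 in Post. HiT mice had 0.0283, 0, 0.0758 and 0.151, Dep mice 0.0754, 0.0919, 0.0353 and 0.152, and Fed mice 0.373, 0.860, 0.491 and 1.02. In experiment #1 every library from a mouse without food was below every library from a mouse with food. A count of 0, as in Mid replicate 4 and HiT replicate 2, allows up to 3 tags, a level of 0.103 in each, counting error only. Angptl8 fell by 4.76 (SE 0.58, FDR 1.54e-06) from Pre to Mid, rose by 4.91 (SE 0.58, FDR 4.83e-07) from Mid to Post and fell by 2.97 (SE 0.60, FDR 4.11e-04) from Fed to Mid. The changes from HiT to Mid (0.53, SE 0.82, FDR 0.634) and from Mid to Dep (0.01, SE 0.83, FDR 0.999) rest on 0 to 6 tags per library.

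Set side by side, the 3 comparisons with mice kept out of torpor gave 8 called members from HiT to Mid (7 higher, 1 lower, against 41.0% of all clusters, 19.2% higher and 21.8% lower), 10 from Fed to Mid (8 higher, 2 lower, against 35.2%, 16.6% higher and 18.6% lower) and 0 from Mid to Dep (against 2.03%). All 3 use the same 8 Mid libraries. Without HiT replicate 2, 4 members were called from HiT to Mid, and from Mid to Dep 46 clusters of all were called without Dep replicate 2 and 357 without Mid replicate 6, where 219 were called with all libraries. From HiT to Mid the called members were both Plin5 promoters, Plin4, Pnpla2 (main), Lipe (downstream), Mgll, Lpl and Angptl4. Lipe (downstream) and Mgll had ranges that did not overlap, whereas those of the other called members did. The share of all clusters with ranges apart was not counted. From Mid to Dep 3 members had an unadjusted p under 0.05 by edgeR, and the likelihood ratio test and DESeq2 each called 1, G0s2. From Pre to Fed 0 members were called (against 11.2%), with 3 at an unadjusted p under 0.05, whereas 10 were called from Pre to HiT (against 33.4%), 10 from Pre to Dep (against 25.8%) and 7 from HiT to Dep (against 26.5%). Macrophage marker genes (5 of 9 detected) summed to 138 to 310 TPM in HiT and 49.1 to 72.6 in Mid, and their part in the HiT comparison was not tested.

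**Figure D3:**
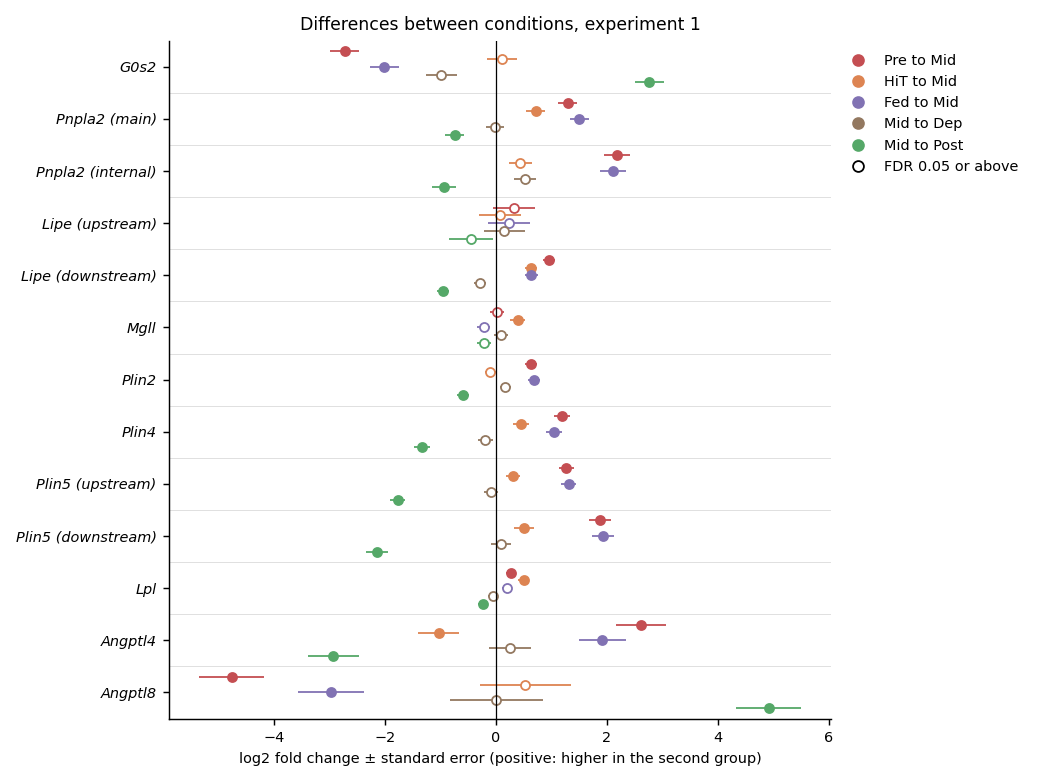
Log2 fold change (x axis, bars are ± 1 SE) of each of the 13 member clusters for 5 comparisons of experiment #1, with filled points for an FDR under 0.05 and open points otherwise. G0s2 and Angptl8 lie far below 0 from Pre to Mid and from Fed to Mid but near 0 from HiT to Mid, and no cluster is filled from Mid to Dep.

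The balance of inhibitor and enzyme was read as a ratio of tags within each library. G0s2 to Pnpla2, with the Pnpla2 promoters summed, was 2.00 ± 0.69 (SD, n = 4) in Pre, 0.143 ± 0.119 (n = 8) in Mid, 1.38 ± 0.32 (n = 4) in Post, 0.190 ± 0.062 in HiT, 1.41 ± 0.41 in Fed and 0.0628 ± 0.0294 in Dep (n = 4 each). Thus in experiment #1 G0s2 tags outnumbered Pnpla2 tags in all Pre libraries and were outnumbered in all Mid, HiT and Dep libraries. In experiment #2 the ratio was 0.622 and 0.816 in Pre, 0.0169 to 0.0615 in Mid and 0.445, 0.451 and 0.560 in Post, so Pnpla2 tags were the more numerous in every library. The paper names a NextSeq or a HiSeq platform for the 2 experiments. The part of platform or batch in this difference between the experiments was not tested. The log2 ratio fell by 4.05, or 16.6-fold, from Pre to Mid (p = 0.00202 in a two-sided exact permutation test, which is the least that 495 divisions allow, with an adjusted p = 0.00471 over 14 ratio tests). Pre and Mid did not overlap for G0s2 or for either Pnpla2 promoter, in opposite directions. The ratio therefore had to separate them, and its p adds no support to those levels. The change from HiT to Mid was -0.65 (exact permutation p = 0.234) and from Mid to Dep -0.97 (exact permutation p = 0.0909).

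Angptl4 to Lpl ran at much lower values, 0.00470 ± 0.00263 (SD, n = 4) in Pre, 0.0242 ± 0.0118 (n = 8) in Mid, 0.00374 ± 0.00215 in Post, 0.0697 ± 0.0171 in HiT, 0.00712 ± 0.00440 in Fed and 0.0299 ± 0.0118 in Dep (n = 4 each). The 4 HiT libraries, 0.0501 to 0.0916, all lay above the 8 Mid libraries, whose highest was 0.050. The log2 ratio rose by 2.40 from Pre to Mid and fell by 1.62 from HiT to Mid (exact permutation p = 0.00202 and adjusted p = 0.00471 for each). From Fed to Mid it rose by 1.86 (exact permutation p = 0.00404, adjusted p = 0.00808), and from Mid to Dep it changed by 0.36 (exact permutation p = 0.352). In experiment #2 it was 0.00196 and 0.00373 in Pre, 0.0167 to 0.0286 in Mid and 0.00213 to 0.00383 in Post. There, 2 Pre against 5 Mid libraries allow 21 divisions, and both ratio changes from Pre to Mid (-4.41 for G0s2 to Pnpla2 and 2.95 for Angptl4 to Lpl) had the smallest exact permutation p these allow, 0.0476 (adjusted p = 0.0606). For G0s2 to Pnpla2 this again followed from levels of the 2 genes that did not overlap between Pre and Mid.

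**Figure D4:**
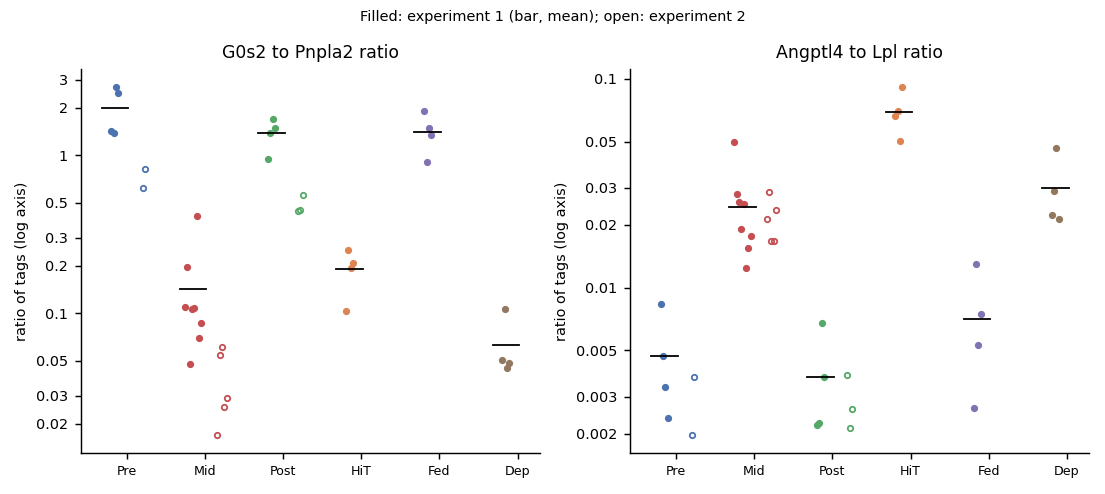
Ratio of G0s2 to Pnpla2 tags and of Angptl4 to Lpl tags in each library (log axes, 1 point per mouse, filled points and mean bars for experiment #1, open points for experiment #2) by condition. The G0s2 to Pnpla2 ratio is high in Pre, Post and Fed and low in Mid, HiT and Dep, and the Angptl4 to Lpl ratio is highest in HiT.

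Experiment #2 gave the same sign as experiment #1 for 13 of 13 clusters from Pre to Mid and for 13 of 13 from Mid to Post. Here 9 members were called from Pre to Mid (7 higher, 2 lower, against 9.74% of all clusters, 5.30% higher and 4.44% lower) and 9 from Mid to Post (2 higher, 7 lower, against 16.4%, 7.73% higher and 8.65% lower). Without Pre replicate 5 or Pre replicate 6, which leaves 1 Pre library that is assumed to vary like the Mid and Post libraries, 6 members were called from Pre to Mid, and the count over all clusters was 268 or 260 in place of 1053. The calls lost were Plin2, Plin4 and upstream Plin5 without Pre replicate 5, and Plin2, upstream Plin5 and the main Pnpla2 promoter without Pre replicate 6, while Plin2 was also lost without Mid replicate 12 (FDR 0.0506). G0s2 was 109 and 116 TPM in Pre, 7.31, 15.4, 19.7, 10.6 and 11.7 in Mid, and 118, 122 and 139 in Post, falling by 3.10 (SE 0.25, FDR 1.16e-04) and then rising by 3.27 (SE 0.23, FDR 1.84e-05). The 2 experiments were scaled separately, so these levels were not compared with those of experiment #1. Angptl8 was 3.33 and 5.53 in Pre, 0.107, 0.122, 0.514, 0.111 and 0 in Mid, and 9.01, 3.60 and 11.2 in Post. Angptl8 fell by 4.65 (SE 0.71, FDR 0.00350) and rose again by 5.49 (SE 0.66, FDR 3.88e-04), and the 0 of Mid replicate 13 allows up to 0.160.

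Among the members that rose in experiment #2, the main Pnpla2 promoter gave 173 and 140 TPM in Pre, 412, 273, 306, 398 and 387 in Mid and 257, 265 and 242 in Post. Angptl4 gave 3.33 and 8.20 in Pre, 48.8, 63.2, 38.8, 40.9 and 64.6 in Mid and 7.69, 4.53 and 4.93 in Post. Neither gene had a Mid library within the range of Pre or Post. From Pre to Mid, Pnpla2 rose by 1.19 (SE 0.18, FDR 0.00300) and Angptl4 by 3.15 (SE 0.37, FDR 0.00107). From Mid to Post the main Pnpla2 promoter fell by 0.48 (FDR 0.0471), a call kept, of the 10 fits that each left out 1 library, only without Mid replicate 10 or 11. Lpl (0.30, SE 0.13, FDR 0.180) and downstream Lipe (0.65, SE 0.26, FDR 0.157) were called from Pre to Mid in experiment #1 only, as were Plin2 (-0.39, SE 0.15, FDR 0.0930) and Lpl (FDR 0.144) from Mid to Post. No member was called for a difference between the experiments in either contrast, and 0 had an unadjusted p under 0.05, by the edgeR quasi-likelihood or the likelihood ratio test. Of all 10819 clusters 0 were called in either contrast by the quasi-likelihood test, with 605 (Pre to Mid) and 704 (Mid to Post) at an unadjusted p under 0.05, and the likelihood ratio test called 8 and 0. In sequencing, lane 3 held both Pre and 4 Mid libraries and lane 4 held Mid replicate 13 and all 3 Post libraries. With lane as a term, chosen after the data were seen, 7 members were called from Mid to Post, and the main Pnpla2 promoter (-0.60, FDR 0.168) and downstream Lipe (-1.18, FDR 0.0905) were not.

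**Figure D5:**
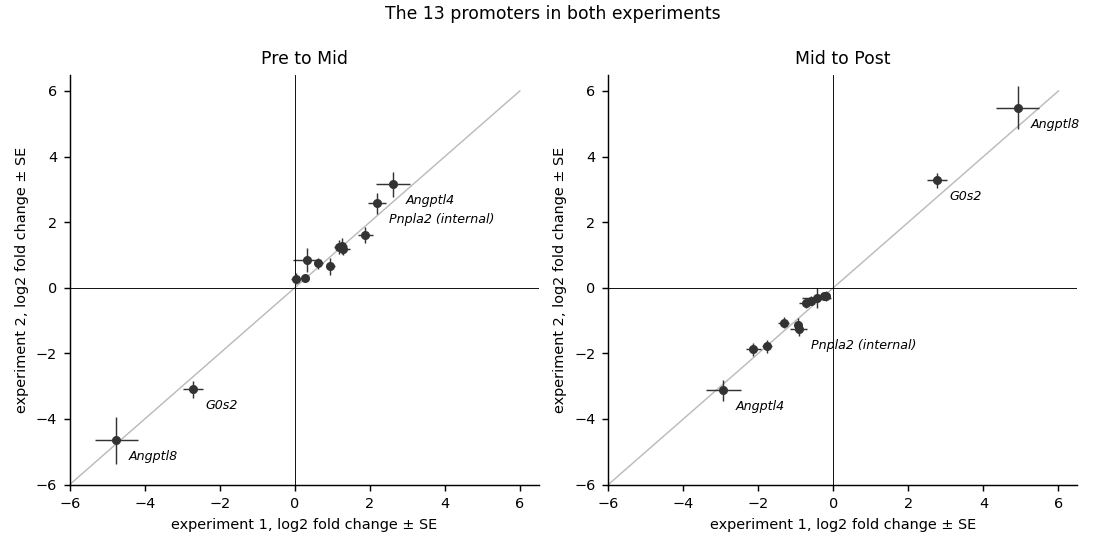
Log2 fold change of each member cluster in experiment #1 (x axis) against experiment #2 (y axis), for Pre to Mid and for Mid to Post, with ± 1 SE and a diagonal line of equal change. All 13 clusters have the same sign in both experiments in each contrast, and G0s2, Angptl8 and Angptl4 lie farthest from 0.

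The other genes of these pathways were taken from 3 lists, whose counts from Pre to Mid in experiment #1 stand beside 15.4% higher and 14.8% lower over all clusters. Of 16 further genes for lipolysis and its control, 10 had a cluster, and from Pre to Mid in experiment #1 2 rose and 2 fell (median log2 change 0.10). The insulin receptor gene Insr rose by 0.42 (SE 0.08, FDR 0.00014) and Pnpla8, a phospholipase, by 0.31 (SE 0.07, FDR 0.00189), while Pnpla3, a close relative of Pnpla2, fell by 2.79 (SE 0.36, FDR 2.58e-06). Pnpla3 had means of 21.7 ± 8.58 (SD, n = 4) TPM in Pre, 3.16 ± 1.69 (n = 8) in Mid, 14.5 ± 8.46 (n = 4) in Post, 2.10 ± 0.22 (n = 4) in HiT, 28 ± 15.1 (n = 4) in Fed and 1.98 ± 0.48 (n = 4) in Dep.

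For droplet coat, droplet formation and triglyceride synthesis, 16 of 21 genes had 19 clusters, of which 6 rose and 4 fell (median log2 change 0.18), against 15.4% and 14.8% of all clusters. Among those that rose were the acyltransferase genes Gpat3 (1.47, SE 0.21, FDR 7.40e-06) and Agpat3 (0.86, SE 0.10, FDR 6.67e-07), the phosphatidate phosphatase gene Lpin1 (0.63, SE 0.17, FDR 0.00696) and the droplet-forming Fitm2 (0.52, SE 0.08, FDR 2.15e-05). Those that fell were Agpat2 (-1.68, SE 0.28, FDR 5.14e-05), Plin1 (-1.64, SE 0.60, FDR 0.0390), Plin3 (-0.39, SE 0.15, FDR 0.0481) and Fitm1 (-0.33, SE 0.08, FDR 0.00194). Plin1, the adipocyte perilipin, is also on the adipocyte marker list, where 0 of 8 clusters rose and 2, Plin1 and Thrsp, fell.

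For lipoprotein lipase maturation, transport and fatty acid uptake, 15 of 20 genes had 19 clusters, of which 7 rose and 0 fell (median log2 change 0.40), against 15.4% and 14.8% of all clusters. They included Cd36 (0.80, SE 0.12, FDR 2.10e-05), a fatty acid transporter, Gpihbp1 (0.79, SE 0.14, FDR 9.09e-05), which carries lipoprotein lipase to the capillary surface, Acsl1 (0.61, SE 0.09, FDR 1.78e-05), an acyl-CoA synthetase, and Slc27a1 (0.53, SE 0.17, FDR 0.0181), a fatty acid transport protein. Gpihbp1 had means of 36.6 ± 3.87 (SD, n = 4) TPM in Pre, 63.3 ± 7.61 (n = 8) in Mid and 28.4 ± 3.02 (n = 4) in Post. From Mid to Dep 0 of these 19 clusters were called, where 2.03% of all clusters were. Endothelial markers, which share the capillary site with Gpihbp1, had 2 of 8 clusters higher and 4 lower from Pre to Mid. Brown adipocyte markers (3 of 5 detected) had 0 higher and 2 lower from Pre to Mid. Those lower were Cox7a1 (-0.26, SE 0.08, FDR 0.012) and Ppargc1b (-0.86, SE 0.23, FDR 0.00629), while Cidea was not called. Ucp1 and Elovl3 had no cluster, so the list cannot show a change in brown adipocyte content. The endothelial and brown adipocyte counts stand beside 15.4% higher and 14.8% lower of all clusters.

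Likeness was described by the Pearson correlation of log2 levels over the 28 libraries of experiment #1, which share depth scaling and the 6 conditions, so it carries no test. Plin5 was most like Pank1 (0.99), a coenzyme A synthesis gene, Tacc2 (0.98) and Gabarapl1 (0.97), Plin4 like Slc43a3 and Aff1 (0.96 each) and Lrch1 (0.95), and Plin2 like Acot2 (0.94), a mitochondrial thioesterase, Slc25a34 and 2410006H16Rik (0.93). G0s2 was most like Sema6c (0.95) and Mr1 (0.94). Angptl8 was most like Acly, the citrate lyase of fatty acid synthesis (0.90), G0s2 (0.90) and Acaca, the acetyl-CoA carboxylase gene (0.89). Angptl4 was most like Hsd17b4 (0.94), Alpk2 and Col4a1 (0.93), Pnpla2 like St3gal5, Trafd1 and Tax1bp1 (0.94), Mgll like Enpp2 (0.86), Glb1l2 and Gsta3, and Lpl like Eprs (0.85), Txlnb and Dhrs4. Among the members, G0s2 and Plin5 had r = -0.90 and Plin4 and Plin5 r = 0.93, whereas Mgll had r = 0.59 with Lipe and 0.46 with Lpl and lay between -0.04 and 0.18 with the other 7 members.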

How the data were processed

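The authors made nAnT-iCAGE libraries. After trimming, BWA and HISAT2 placed their reads on the mm10 build, and PromoterPipeline clustered start sites over all libraries. The authors deposited raw tag counts per cluster and TPM, that is tags per 1000000. The counts were used here, and the deposited TPM values were not tested. Tags in clusters numbered 18257657 to 39176649 per library in experiment #1 and 9359994 to 20914855 in experiment #2, at least 93.08% of each library, so counting error matters chiefly for Angptl8.

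Clusters were assigned to genes when within 500 bp, on the same strand, of a GENCODE vM21 5′ end. Each experiment was fitted as a whole, 28 and 10 libraries, by edgeR 4.0.16 (quasi-likelihood F test, TMM scaling, every cluster with a tag, 10776 and 10816 clusters, R 4.3.3) with Benjamini-Hochberg FDR under 0.05, and the authors also used edgeR. The common dispersion was 0.03767 and 0.03911. On simulated counts for Pre to Mid in experiment #1 the test recovered 88.5% of 200 clusters changed by 1 on the log2 scale, and 71.0% in experiment #2. Ratios were compared by exact permutation tests of the log2 ratio, adjusted over 14 tests.

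Named genes were all members, up to 4 clusters per direction of each of 3 pathway lists by largest change among those called from Pre to Mid, and the 3 clusters of other genes most like each member's strongest cluster (log2 of level + 0.1). Of the genes this rule named, 2 are not reported here. The members and lists were chosen with earlier results of these data known. Motifs were searched in RefSeq windows (GRCm38.p6) within reach of the clusters. Alternatives were DESeq2 1.42.0, the edgeR likelihood ratio test, filterByExpr, scaling without TMM or by upper quartile, only the groups compared, all 38 libraries, the adipocyte marker level or the replicate number as a term, and each library left out. Library pairs were checked for duplicates, and the lowest chi-square per cluster over 72 pairs was 12.5. Same-numbered libraries deviated together no more than others (mean r -0.01 against 0), so numbers were not taken as pairs.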

Additional observations from a re-analysis of the deposited data

Results flagged for a closer look

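Libraries were singled out where the highest or lowest value of a group of 4 to 10 stood apart by Dixon's criterion, which was met in 12 of 105 groups tested, where chance gives about 1 in 20. Mid replicate 1 stood apart as the highest for Angptl4 (92.1 TPM), for the upstream Lipe promoter (31.6) and for the Angptl4 to Lpl ratio (0.050), and it had the highest adipocyte marker sum of the Mid group (1229). Dep replicate 3 stood apart for upstream Lipe (25), with the highest adipocyte marker sum of all (1600). Mid replicate 6 was the lowest for the upstream Plin5 promoter (18.3) and the highest for the G0s2 to Pnpla2 ratio (0.415), and it also had the lowest Mid levels of Pnpla2 (154), Plin4 (223) and Angptl4 (23.3) and the highest of G0s2 (65.9). Dep replicate 2 was the highest for G0s2 (27.6) and for the G0s2 to Pnpla2 ratio (0.107). Fed replicate 2 was the lowest for G0s2 (93.8) and the highest for Plin2 (16) and for the internal Pnpla2 promoter (3.37). In experiment #2, Mid replicate 11 was the highest for Angptl8 (0.514, 7 tags). The part of marker content or depth in these values was not tested.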

How the results depend on the processing

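No member past the threshold, in the fit reported or in an alternative, changed sign between them. Members short of it in both did, such as upstream Lipe from HiT to Mid (0.07, and -0.15 with the adipocyte term) and Angptl8 from Mid to Dep (0.01, and -0.10). Of the single member results, filterByExpr kept all 91, DESeq2 kept 90 and the likelihood ratio test 89, and leaving out libraries kept 2022 with 53 calls lost and 5 gained, of which 20 were losses of Lpl from Mid to Post. The adipocyte term lost 2 calls and gained 7, and scaling without TMM lost 5, the 2-group fit 5 and upper-quartile scaling 3. For counts over all clusters the cause was not tested. Without TMM 1458 clusters were called from Pre to Mid in experiment #1 (3253 with it), 1630 from Mid to Post (3771), 2323 from HiT to Mid (4422), 2181 from Fed to Mid (3797) and 9 from Mid to Dep (219). From Mid to Dep the likelihood ratio test called 343, DESeq2 479 and the 2-group fit 2, and the likelihood ratio test and DESeq2 each called 1 member. A fit that pooled all 38 libraries of both experiments, with experiment as a term, called 4009 from Pre to Mid and 4527 from Mid to Post, where experiment #2 alone gave 1053 and 1772. With lane as a term, added after seeing the data, experiment #2 gave 485 from Mid to Post. The share of calls that were higher moved from 51.0% to 36.6% without TMM and 35.7% by upper quartile from Pre to Mid in experiment #1, from 49.9% to 63.3% by upper quartile from Mid to Post, from 47.1% to 23.3% and 36.7% from Fed to Mid, from 57.1% to 77.8% without TMM from Mid to Dep, and from 47.2% to 62.2% and 58.3% from Mid to Post in experiment #2. Without TMM the median log2 change of all clusters was -0.117 from Fed to Mid (0.003 with it) and 0.113 from HiT to Mid (0.018).

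Leaving out 1 library gave 46 to 357 clusters from Mid to Dep (46 without Dep replicate 2, 357 without Mid replicate 6), 260 to 1320 from Pre to Mid in experiment #2 (260 without Pre replicate 6), 4 to 9 members from HiT to Mid (4 without HiT replicate 2) and 0 to 1 members from Mid to Dep. In experiment #2 the Mid to Post ratio changes ranged from 3.60 to 4.07 for G0s2 to Pnpla2 and from -3.15 to -2.72 for Angptl4 to Lpl, with exact permutation adjusted p = 0.0606 when a Post library was left out, where the 21 divisions left allow no unadjusted p below 0.0476.

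The replicate numbers did not pair the libraries of experiment #1 (correlation of deviations -0.51 to 0.46 for the same number and -0.55 to 0.65 for different numbers). With the replicate block, 407 clusters were called from Mid to Dep, and of the member results 61 were kept, 3 lost and 1 gained. In that fit Mid replicates 5 to 8, whose numbers no other group of experiment #1 holds, add nothing to a contrast. The Mid group there thus rests on Mid replicates 1 to 4. The lost calls were Lpl in both contrasts and Angptl4 from HiT to Mid (-0.80, FDR 0.185), and the gained one was the internal Pnpla2 promoter from HiT to Mid (0.50, FDR 0.0376). No paired analysis was possible because Pre and Mid, and Mid and Post, share no replicate numbers in experiment #2.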
